A study of Mus musculus with 31 samples.

Results

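Gene expression in the temporo-occipital cortex was compared between APP/PS1 mice that carried the PLCγ2-P522R variant on both Plcg2 alleles (A+/Pki/ki, n = 4, mice 184, 203, 216 and 222) and APP/PS1 mice with both Plcg2 alleles of the wild type (A+/Pwt/wt, n = 4, mice 236, 257, 259 and 329). These 8 libraries were taken by genotype from the 31 libraries analysed of the study, and the comparison addresses whether the variant alters the cortical transcriptome when β-amyloid is deposited. All of the mice were females of 13 months, and mice of both genotypes carried the APP/PS1 transgenes, which include chimeric mouse/human APP with the Swedish mutation, under the control of the mouse prion promoter. The variant had been introduced into the mouse gene by CRISPR/Cas9. A single cortical library of a mouse with neither the transgenes nor the variant (A-/Pwt/wt, n = 1, mouse 312) served as a reference level and entered no test. The cortex was collected after perfusion. RNA was extracted from the homogenized tissue piece, so the libraries contain the RNA of all of its cell types.

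PLCγ2 is a phospholipase that acts downstream of immune receptors. In the brain, it is expressed mainly in microglia, where it receives signals from TREM2 and the adaptor TYROBP through the kinase SYK. It cleaves the membrane lipid PIP2 into IP3, which releases calcium from the endoplasmic reticulum, and diacylglycerol, which activates protein kinase C and RasGRP proteins. The P522R variant is a mildly activating change associated with a lower risk of Alzheimer's disease, and APP/PS1 mice develop β-amyloid plaques around which microglia and astrocytes change their expression.

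Plcg2 (ENSMUSG00000034330.10) lies on GRCm38 chromosome 8, 117498291 to 117635142, plus strand. The Swedish mutation of the transgene lies at codons 670 and 671 of the 770-codon form of App, and the corresponding codons of the mouse gene (chr16:84965721-84965726, minus strand) are in capitals in the sequence that follows. The sequence is from the Gencode annotation of GRCm38, runs 5′ to 3′ along the transcript with 12 bases on either side, and is shown because the transgene that drives β-amyloid deposition in all A+ mice was altered there. It was not read from the libraries, and counts per gene do not show which allele or transgene a read came from.
App codons 670 and 671: atctcggaagtgAAGATGgatgcagaattc

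The A+ libraries held 25226544 to 43129427 counts, and mitochondrially encoded genes took 4.03 to 5.58% of them over all 9 cortex libraries. Expression is given as CPM, the counts of a gene relative to the library total after scaling by TMM. Values of A+/Pwt/wt mice are listed in the order 236, 257, 259 and 329, and those of A+/Pki/ki mice in the order 184, 203, 216 and 222. The level of the A-/Pwt/wt library is from a scaling of all 9 cortex libraries. The transgene labels matched the counts. App was 3239.8 to 3957 CPM in the 8 A+ libraries and 1905 CPM in the A-/Pwt/wt library, and Prnp was 2419 to 3131 against 849 CPM. The neuronal genes Snap25 and Camk2a averaged 2625 and 2933 CPM in A+/Pwt/wt mice. Transcripts of neighbouring regions varied among the tissue pieces. The striatal genes Ppp1r1b and Penk were lowest in A+/Pwt/wt mouse 257, at 188 and 167 CPM, whereas Ppp1r1b reached 696 CPM in mouse 236. Mouse 257 also stood apart on the first principal component (24.4% of the variance, 48.1 compared with −21.8 to 11.4 in the other libraries). The genotypes overlapped on the first and second components (24.4% and 17.0% of the variance). They were separated on the third component (13.8% of the variance, −23.1 to −7.69 in A+/Pki/ki and 2.76 to 23.3 in A+/Pwt/wt mice), which was singled out after the scores were seen. The correlation of log2 CPM between libraries had a median of 0.988 both within and between the genotypes (12 and 16 pairs, respectively).

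Plcg2 itself was measured at 9.37, 9.52, 9.67 and 8.09 CPM in A+/Pwt/wt and at 8.48, 8.38, 9.3 and 7.84 CPM in A+/Pki/ki mice. The ranges of the genotypes overlapped, and all 8 values were above the 5.32 CPM of the A-/Pwt/wt library. The log2 fold change of A+/Pki/ki over A+/Pwt/wt mice (log2FC) was −0.11 with an SE of 0.11 and a 95% interval of −0.33 to 0.12, so the difference was within its error. App was 3364, 3746, 3938 and 3729.7 CPM in A+/Pwt/wt and 3731, 3516, 3579.7 and 3263 CPM in A+/Pki/ki mice (log2FC −0.069, SE 0.075), which also overlapped. Prnp had a log2FC of −0.028 (95% interval −0.21 to 0.15), so zero was within its interval.

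No gene was shown to differ between the genotypes in the cortex of APP/PS1 mice, and the abundant transcripts of neurons, glia and plaque-associated microglia lay close together. The genes with the smallest p included Myoc, which was lower in A+/Pki/ki mice, and Copz2, Mylk, Gstm6 and Hspa8, which were higher, by amounts between 0.30 and 0.83 on the log2 scale. Across the cortical transcriptome, 0 of 18640 genes (0%) passed an adjusted p of 0.05 between the genotypes (edgeR quasi-likelihood test, Benjamini-Hochberg adjustment, n = 4 and 4). The smallest adjusted p was 0.556, and only 6 genes had an adjusted p under 0.99. Without adjustment, 486 genes (2.61% of those tested) had a p under 0.05, of which 231 were higher (1.24%) and 255 lower (1.37%) in A+/Pki/ki mice. That share was below the 5% that this threshold gives by chance when no gene differs. For 344 genes (1.85%), every mouse of one genotype was above every mouse of the other, of which 175 were higher and 169 lower in A+/Pki/ki mice. The log2FC was above 0 for 49.3% of all genes, with a median of −0.0018. limma on the authors' variance-stabilized values likewise called 0 of 19287 genes (smallest adjusted p 0.0703, 548 with an unadjusted p under 0.05). With the Wald test of DESeq2, 11 genes passed (0.059%), 4 higher and 7 lower in A+/Pki/ki mice, with 456 at an unadjusted p under 0.05.

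**Figure D1:**
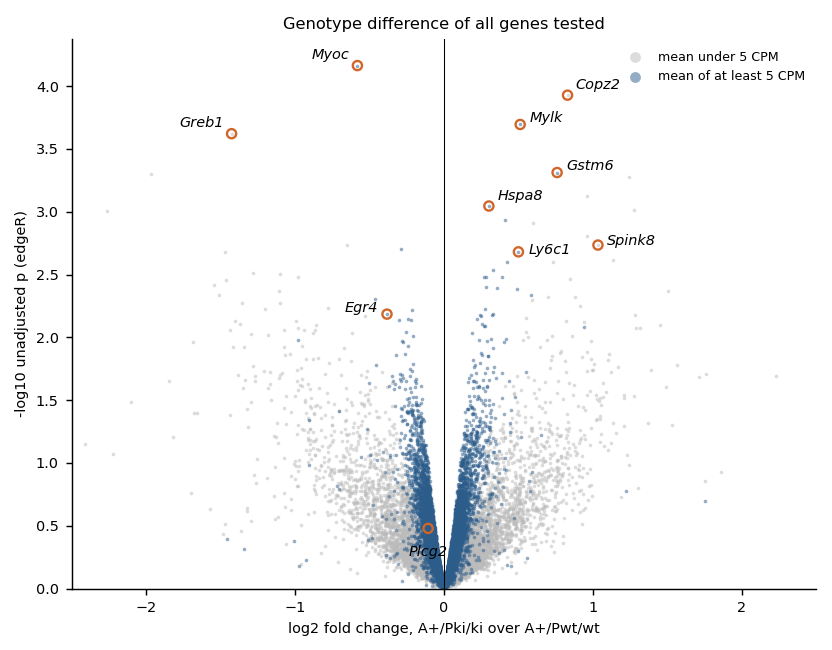
Log2FC of A+/Pki/ki over A+/Pwt/wt mice (x axis) against −log10 of the unadjusted p of edgeR (y axis) for the genes tested, grey under and blue from a mean of 5 CPM, with 8 genes beyond a log2FC of 2.5 left out of the plot. Circled are named genes: Myoc is the highest point at −0.58, Mylk and Copz2 lead on the right at 0.51 and 0.83, and Plcg2 lies close to the centre.

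The precision of these differences depended on the level of expression. The 95% interval of the log2FC lay within 1 of zero, a 2-fold difference in either direction, for 15822 genes (84.9%), and within 0.5 for 11954 genes (64.1%). Of the 11853 genes that averaged 5 CPM or more, these shares were 99.1% and 94.1%, and the distance from the estimate to either end of the interval had a median of 0.19. Under 5 CPM, its median was 0.66. A 2-fold difference was thus outside the interval for nearly all genes of at least 5 CPM. Only 8 genes of at least 5 CPM had a log2FC beyond 1 in either direction. They were the transthyretin gene Ttr, the antibody light chain gene Igkc, the antisense transcript A830036E02Rik, the long non-coding RNA Gm7292 and the pseudogenes Gm13394, Gm15459, Gm15772 and Rps7-ps3, named here after their values were seen.

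**Figure D2:**
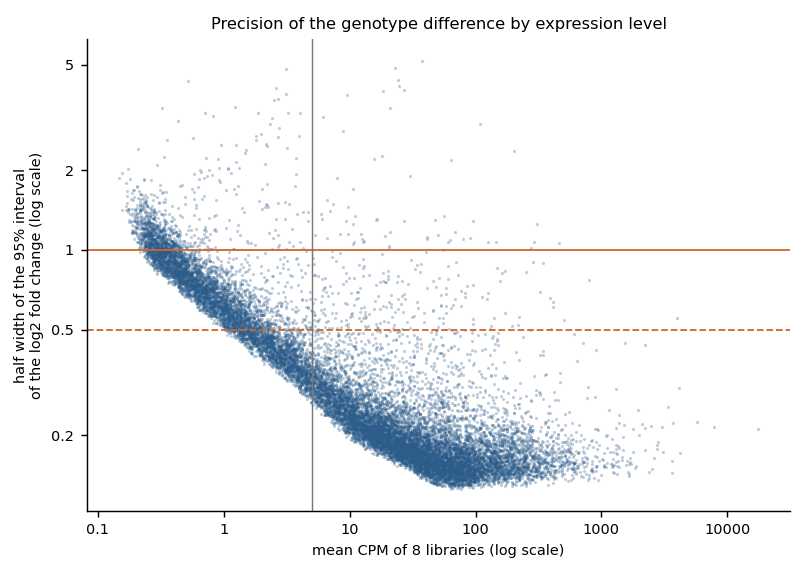
Distance from the log2FC to either end of its 95% interval (y axis, log scale) against the mean CPM of the 8 A+ libraries (x axis, log scale), one point per gene. The orange lines mark 1 and 0.5 and the grey line 5 CPM, to the right of which 99.1% of the intervals lay within 1 of zero.

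Of the protein-coding genes that DESeq2 called, Myoc, Greb1, Mylk, Copz2, Gstm6 and Hspa8, none had overlapping ranges between the genotypes. Myoc (ENSMUSG00000026697.10, chromosome 1, 162639155 to 162649693, plus strand), which encodes the secreted glycoprotein myocilin, was 32.2, 35.1, 26 and 26.4 CPM in A+/Pwt/wt and 19.5, 21.8, 17.6 and 21.1 CPM in A+/Pki/ki mice. All A+/Pki/ki mice were lower than all A+/Pwt/wt mice and than the A-/Pwt/wt library (28.6 CPM), with a log2FC of −0.58, an SE of 0.11 and an adjusted p of 0.556 in edgeR and 0.00734 in DESeq2. Greb1 (chromosome 12, 16670615 to 16800886, minus strand), an oestrogen-responsive gene, was also lower in A+/Pki/ki mice (0.764, 0.893, 1.03 and 0.896 CPM) than in A+/Pwt/wt mice (3.05, 1.04, 2.32 and 3.19 CPM), although mouse 257 was close to the A+/Pki/ki range (log2FC −1.43, SE 0.30, adjusted p 0.743 in edgeR and 0.0217 in DESeq2). It was called by edgeR without mouse 257 (log2FC −1.66, adjusted p 0.0291). Mylk (chromosome 16, 34745210 to 35002420, plus strand), which encodes the kinase that phosphorylates myosin light chain in smooth muscle and other cells, was higher in A+/Pki/ki mice (25.1, 27, 32.3 and 26.4 CPM) than in A+/Pwt/wt mice (16.4, 18.7, 20.9 and 21.9 CPM). The log2FC was 0.51 (SE 0.11, adjusted p 0.743 in edgeR and 0.0249 in DESeq2), and the A-/Pwt/wt library, at 26.1 CPM, was within the A+/Pki/ki range. The exons of Myoc, Greb1 and Mylk, and of Cacna1a, Sox21 and Klhl32 below, overlap those of transcripts on the other strand, and the counting did not use strand.

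Copz2, a subunit of the COPI coat of transport vesicles, was 3.16, 3.77, 3.43 and 2.99 CPM in A+/Pwt/wt and 7.17, 4.52, 6.35 and 5.66 CPM in A+/Pki/ki mice (log2FC 0.83, SE 0.16, adjusted p 0.556 in edgeR and 0.0125 in DESeq2). Gstm6, a glutathione S-transferase of the mu class, was 3.49, 7.15, 5.48 and 5.04 CPM in A+/Pwt/wt and 9.28, 8.55, 8.29 and 9.46 CPM in A+/Pki/ki mice. Its A+/Pki/ki values were close together, its A+/Pwt/wt values differed about 2-fold and the log2FC was 0.76 (SE 0.17, DESeq2 adjusted p 0.0333). Genes of this family are alike in sequence, and their reads can be hard to assign. Hspa8 (chromosome 9, 40800984 to 40810087, plus strand), the constitutive HSC70 chaperone and an abundant transcript of neurons, was 1666, 1395, 1471 and 1421 CPM in A+/Pwt/wt and 1854, 1874, 1813 and 1796 CPM in A+/Pki/ki mice. The difference was small (log2FC 0.30, SE 0.073, 95% interval 0.15 to 0.46, DESeq2 adjusted p 0.0332), but the A+/Pki/ki mice were within a narrow range and all above the A+/Pwt/wt mice, of which mouse 236 was closest. The level of the A-/Pwt/wt library, 1853 CPM, was within the A+/Pki/ki range. Of 35 heat shock and chaperone genes, listed after the value of Hspa8 was seen, 12 were higher and 23 lower in A+/Pki/ki mice, with a median log2FC of −0.014. Apart from Hspa8, only Hspa5, which encodes the endoplasmic reticulum chaperone BiP, had an unadjusted p under 0.05, in the opposite direction (log2FC −0.20).

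**Figure D3:**
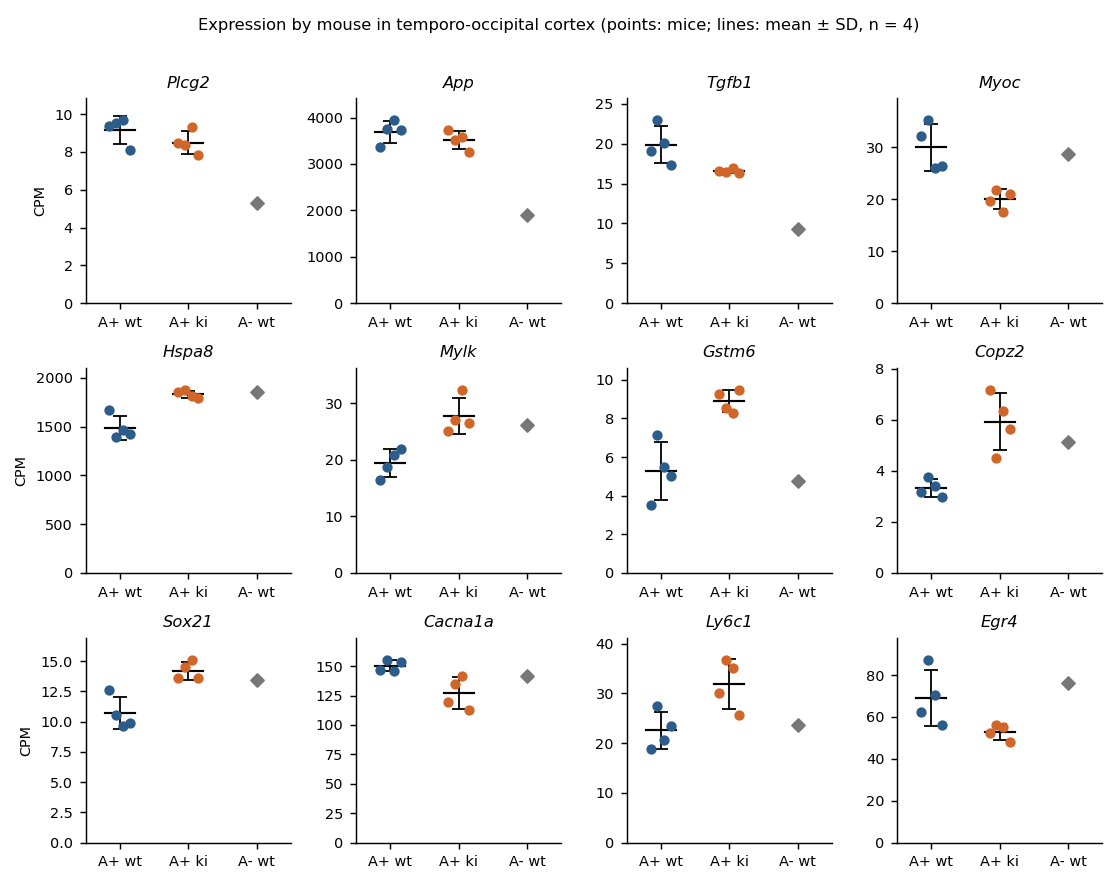
CPM (y axis from 0) of 12 genes in each A+/Pwt/wt (blue), A+/Pki/ki (orange) and A-/Pwt/wt mouse (grey diamond, n = 1, scaled over 9 libraries), with the mean ± SD of 4 mice as black lines. Plcg2, App, Ly6c1 and Egr4 overlap between the genotypes, whereas in the other panels all A+/Pki/ki mice lie on one side of the A+/Pwt/wt mice.

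The other genes called by DESeq2 or, with a library left out, by edgeR were mostly pseudogenes and predicted transcripts that were high in some mice and near zero in others. Gm2427 (unprocessed pseudogene, chromosome 1, 85501090 to 85514604, plus strand) had 10, 44, 22 and 37 counts in A+/Pwt/wt mice and 0, 0, 0 and 0 counts in A+/Pki/ki mice, and its read counts in the A-/Pwt/wt library came to 1. Gm13872, a transcript antisense to the glutamate transporter gene Slc1a2, had 6, 23, 13 and 27 counts in A+/Pwt/wt and 2, 0, 3 and 0 counts in A+/Pki/ki mice. Both were called by DESeq2 (adjusted p 8.84e-07 and 0.0178), and the counts of both were low throughout. The pseudogene Gm15459 (chromosome 5, 5781615 to 5783555, minus strand) was 9.46, 173, 204 and 87.2 CPM in A+/Pwt/wt and 10.9, 10.8, 9.6 and 9.83 CPM in A+/Pki/ki mice, so A+/Pwt/wt mouse 236 had the level of the A+/Pki/ki mice. Gm13394 was 121, 0.562, 0.533 and 57.9 CPM in A+/Pwt/wt mice and 0.509 to 0.726 CPM in A+/Pki/ki mice, and Gm7993 was 13.6, 0.0803, 6.63 and 4.93 and 0.218, 0.317, 0.0234 and 0.121 CPM, respectively. For these 3 pseudogenes, at least 1 A+/Pwt/wt mouse did not differ from the A+/Pki/ki mice, although DESeq2 gave an adjusted p of 0.0188, 0.0249 and 0.0333. Mrpl27-ps, a pseudogene of a mitochondrial ribosomal protein gene on chromosome 18, was 4.46, 3.89, 4.15 and 3.99 CPM in A+/Pwt/wt and 0.0728, 5.18, 0.117 and 0.218 CPM in A+/Pki/ki mice. Only A+/Pki/ki mouse 203 was at the level of the A+/Pwt/wt mice, and without it, edgeR called the gene (log2FC −4.82, adjusted p 2.66e-06). Hdhd3, a gene of the haloacid dehalogenase family, was 13.3, 9.68, 11.1 and 4.53 CPM in A+/Pwt/wt and 5.09, 4.26, 4.17 and 5.98 CPM in A+/Pki/ki mice and 15.9 CPM in the A-/Pwt/wt library. It was called only without A+/Pwt/wt mouse 329 (log2FC −1.22, adjusted p 0.029), the one that overlapped with the A+/Pki/ki mice.

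Among genes of at least 5 CPM whose ranges did not overlap, the smallest unadjusted p in the higher direction belonged to Gstm6, Mylk, Hspa8, Sox21, Pigx, A430033K04Rik, Tubb2b, Smoc1, Ramp2 and Xdh. Sox21, a transcription factor of neural progenitors and glia, was 12.6, 10.5, 9.67 and 9.92 CPM in A+/Pwt/wt and 13.6, 14.5, 15.1 and 13.6 CPM in A+/Pki/ki mice (log2FC 0.41, SE 0.10, unadjusted p 0.00117). Tubb2b, a β-tubulin of developing neurons, was 136, 139, 137 and 113 CPM and 155, 151, 177 and 155 CPM, respectively (log2FC 0.28, SE 0.081). Smoc1, a secreted calcium-binding matrix protein, was 23, 24, 25.3 and 23.2 and 27.4, 27.7, 31 and 28.8 CPM (log2FC 0.27, SE 0.077), and Ramp2, a part of the adrenomedullin receptor of vascular endothelium, was 11, 13.4, 12.1 and 12.3 and 13.9, 14, 17.3 and 17 CPM (log2FC 0.36, SE 0.11). Pigx, which takes part in the synthesis of the GPI anchor, A430033K04Rik and Xdh, the xanthine dehydrogenase, were higher by a log2FC of 0.33, 0.39 and 0.49. From Sox21 to Xdh, these differences were 20.4 to 40.3% in size. They did not pass the adjustment for 18640 genes, each with an adjusted p of at least 0.9997 in edgeR.

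In the lower direction, these genes were Myoc, Zkscan1, Gm3764, Cacna1a, Mia2, Zdhhc14, Tle2, Klhl32, Tgfb1 and Trim17. Cacna1a, the pore-forming subunit of the P/Q-type calcium channel that drives transmitter release, was 147, 155, 146 and 153 CPM in A+/Pwt/wt and 119.7, 135, 142 and 113 CPM in A+/Pki/ki mice (log2FC −0.24, SE 0.077, unadjusted p 0.00721). The A+/Pwt/wt mice were close together, and A+/Pki/ki mouse 216 was close to them. Tgfb1, which encodes the cytokine TGF-β1 that maintains the homeostatic state of microglia, was 19.1, 22.9, 20.1 and 17.4 CPM in A+/Pwt/wt and 16.5, 16.5, 16.9 and 16.4 CPM in A+/Pki/ki mice (log2FC −0.26, SE 0.093, 95% interval −0.46 to −0.061, unadjusted p 0.0136). Its A+/Pki/ki values were nearly identical and all below the A+/Pwt/wt values, and the A-/Pwt/wt library was lower than both, at 9.28 CPM. Zkscan1, a zinc finger protein, was 60.3, 53.8, 53.8 and 57.3 and 48.1, 44, 51.1 and 41.4 CPM (log2FC −0.29, SE 0.077). Klhl32 was 15.9, 15.5, 16 and 15.8 and 13.1, 14.2, 13.6 and 12.5 CPM (log2FC −0.24, SE 0.084), with the A+/Pwt/wt mice close together. The remaining genes, the long non-coding RNA Gm3764, the ER export factor Mia2, the palmitoyltransferase Zdhhc14, the corepressor Tle2 and the ubiquitin ligase Trim17, had a log2FC of −0.21, −0.22, −0.21, −0.28 and −0.32.

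A total of 36 gene lists for pathways and cell types were then described by the number of their members above and below zero, by the median log2FC and by the members with an unadjusted p under 0.05, for comparison with 49.3%, −0.0018 and 2.61% of all genes. In each list, 0 members passed an adjusted p of 0.05 in edgeR. Because the tissue was bulk cortex, fewer cells of a type and less RNA per cell cannot be told apart.

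**Figure D4:**
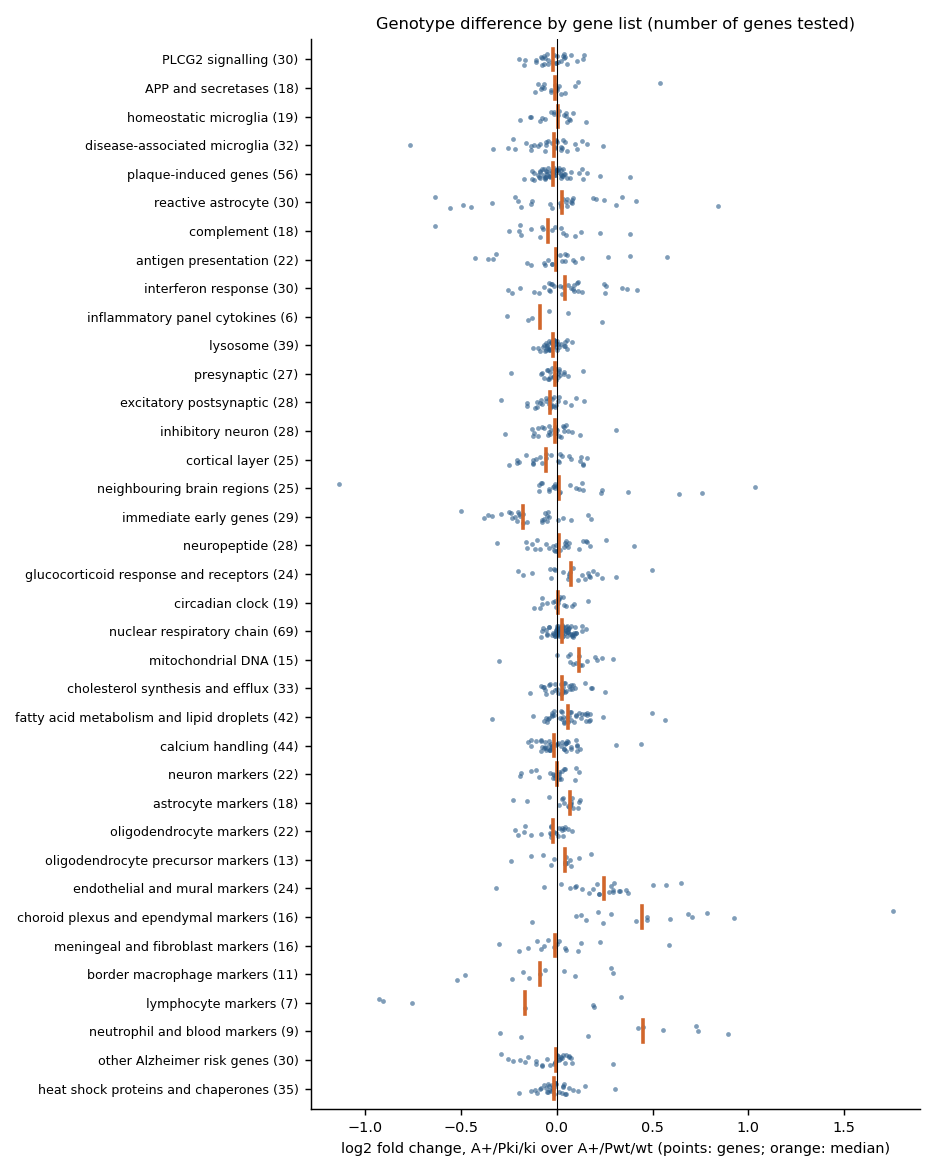
Log2FC of A+/Pki/ki over A+/Pwt/wt mice (x axis) of each tested member (blue points) of 37 gene lists, with the median of each list in orange and the number of members tested in parentheses. Most medians lie within 0.1 of zero, with neutrophil and blood markers (0.45), choroid plexus and ependymal markers (0.44) and endothelial and mural markers (0.25) farther above and immediate early genes (−0.18) and lymphocyte markers (−0.17) farther below.

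Transcripts of the signalling pathway around PLCγ2 lay close together in the genotypes. Of 30 genes, 11 were higher and 19 lower in A+/Pki/ki mice, with a median log2FC of −0.021, a range of −0.20 to 0.14 and 0 members with an unadjusted p under 0.05. The 95% interval lay within 0.5 of zero for 29 of them. Upstream, the adaptor gene Tyrobp was 51.6, 67, 54.5 and 43 CPM in A+/Pwt/wt and 55.9, 60.9, 46.9 and 55.4 CPM in A+/Pki/ki mice (log2FC 0.021, SE 0.12). The Fc receptor γ chain gene Fcer1g had a log2FC of −0.17, with zero inside its 95% interval of −0.43 to 0.080. Syk and Btk, the kinases that activate PLCγ2, had a log2FC of −0.063 and 0.036, and the phosphatase gene Inpp5d, which removes the lipid PIP3, −0.077. The inhibitory receptor gene Cd33 was 16.1, 16.1, 14.4 and 17.4 and 12.8, 15.3, 12.9 and 15.9 CPM, with overlapping ranges (log2FC −0.17, SE 0.10). Downstream, protein kinase C β (Prkcb, log2FC −0.044, SE 0.066), diacylglycerol kinase ζ (Dgkz, log2FC −0.047, SE 0.092) and the calcium-dependent transcription factor Nfatc1 (log2FC 0.14, SE 0.099) likewise overlapped. Prkcb and Dgkz are also expressed by neurons, so their cortical level is not that of microglia alone. Of the 44 genes of calcium handling, 21 were higher and 23 lower (median −0.014). Only Atp2a3, a calcium pump of the endoplasmic reticulum, had an unadjusted p under 0.05, at 9.03 ± 1.72 CPM in A+/Pwt/wt and 12.2 ± 3.49 CPM in A+/Pki/ki mice (log2FC 0.44, SE 0.20), with A+/Pki/ki mouse 216 the highest.

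The genes that microglia induce around plaques were above the A-/Pwt/wt library in both genotypes, and their levels overlapped between the genotypes. In the A-/Pwt/wt library, 30 of 32 genes of disease-associated microglia and 55 of 56 plaque-induced genes were below all 8 A+ libraries, compared with 15.4% of all genes. These lists had been described by others in plaque-bearing mice, and a single reference mouse does not give the spread without the transgenes. Between A+/Pki/ki and A+/Pwt/wt mice, 12 of the 32 genes of disease-associated microglia were higher and 20 lower, with a median log2FC of −0.017. The mean log2 CPM of the list was 5.60, 5.94, 5.60 and 5.54 in A+/Pwt/wt and 5.71, 5.72, 5.52 and 5.58 in A+/Pki/ki mice, with mouse 257 as the highest. Without that mouse, the median log2FC was 0.038. Apoe was 2229, 2171, 2001 and 1618 CPM in A+/Pwt/wt and 1993, 1883, 1942 and 2159.9 CPM in A+/Pki/ki mice and 1553 CPM in the A-/Pwt/wt library, and the protease gene Ctsd was 575 ± 91.9 CPM in A+/Pwt/wt and 537 ± 66 CPM in A+/Pki/ki mice (log2FC −0.099, SE 0.11) against 194 CPM. For Ctsd, both A+ genotypes were far above the A-/Pwt/wt library, and the interval of their difference was −0.34 to 0.15. The list held 2 members with an unadjusted p under 0.05, in opposite directions. Lpl, the lipoprotein lipase, was 56, 60.8, 50.3 and 50.5 CPM in A+/Pwt/wt and 74.7, 61.1, 57 and 64.4 CPM in A+/Pki/ki mice (log2FC 0.24, SE 0.089, unadjusted p 0.016). Its ranges met, since A+/Pwt/wt mouse 257 was above A+/Pki/ki mouse 216. Lilrb4a, an inhibitory receptor of the leukocyte immunoglobulin-like family, was 1.64, 2.41, 0.952 and 1.77 and 1.02, 1.24, 0.703 and 1.02 CPM (log2FC −0.77, SE 0.28, unadjusted p 0.016), compared with 0.0477 CPM in the A-/Pwt/wt library.

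Of the 56 plaque-induced genes, 21 were higher and 35 lower in A+/Pki/ki mice (median log2FC −0.018), and 0 had an unadjusted p under 0.05. Homeostatic microglial genes were split 10 to 9 (median 0.0036). Among them, the phagocytic receptor gene Mertk (39.6 ± 4.08 CPM in A+/Pwt/wt and 44 ± 3.71 CPM in A+/Pki/ki mice, log2FC 0.15, SE 0.086) had the smallest unadjusted p of the higher and Selplg (66.8 ± 6.58 CPM in A+/Pwt/wt and 60.6 ± 1.59 CPM in A+/Pki/ki mice, log2FC −0.14, SE 0.074), which encodes the P-selectin ligand, of the lower members, both with overlapping ranges. In the lysosome list, 28 of 39 genes were lower, but their log2FC was within −0.12 to 0.079 and the median was −0.021. The endolysosomal channel gene Mcoln1 was the lowest (log2FC −0.12, SE 0.068, unadjusted p 0.0872). Of 18 complement genes, 7 were higher and 11 lower (median −0.048). C1qa was 159, 164, 151 and 124 and 161, 177, 136 and 137 CPM (log2FC 0.031, SE 0.10), whereas C1qb was 144, 62.4, 72.8 and 111 CPM in A+/Pwt/wt mice, in which it differed about 2-fold, and 116, 115, 130.4 and 149 CPM in A+/Pki/ki mice. Genes of antigen presentation were split 11 to 11 (median −0.0041). The class I gene B2m (log2FC −0.063, SE 0.078) was at a like level in both, and the class II genes H2-Eb1, H2-Aa, H2-Ab1 and Cd74 had a log2FC of −0.43, −0.36, −0.33 and −0.32, none of which had an unadjusted p under 0.05. H2-Eb1 was 4.46, 5.22, 3.88 and 6.7 and 6.15, 3.2, 3.07 and 2.86 CPM, and of the A+/Pki/ki mice, only mouse 184 was within the A+/Pwt/wt range. Of 30 interferon response genes, 18 were higher and 12 lower (median 0.045), with 0 at an unadjusted p under 0.05. Ifit3 was 14.4 ± 1.22 CPM in A+/Pwt/wt and 15.5 ± 0.935 CPM in A+/Pki/ki mice (log2FC 0.11, SE 0.092).

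Because cytokines and TGF-β proteins of the same cortex had been assayed by the study, their 14 transcripts were examined individually. Only 6 of them, Tgfb1, Tgfb2, Tgfb3, Il4, Il12a and Il1b, had enough counts for the test, of which 2 were higher and 4 lower in A+/Pki/ki mice (median log2FC −0.087). Il1b, a main cytokine of activated microglia, was 11, 11, 17 and 13 counts in A+/Pwt/wt and 16, 11, 14 and 15 counts in A+/Pki/ki mice, which gave a log2FC of −0.15 with a 95% interval of −0.97 to 0.67, which reached beyond 0.5 in both directions. Il6 was not tested, with 8, 1, 6 and 3 counts in A+/Pwt/wt and 4, 6, 7 and 10 counts in A+/Pki/ki mice, and Tnf had 8, 1, 0 and 5 and 0, 5, 0 and 2 counts, respectively. Ifng and Il10 had 0 counts in all 8 libraries, and Il2, Il5, Il12b and Cxcl1 did not exceed 5 counts in any A+ library. At this depth, differences in these cytokine transcripts were not detectable. Tgfb2 was 8.62, 12.8, 10.9 and 13.6 and 13.1, 13.3, 14.4 and 13.1 CPM (log2FC 0.23, SE 0.13) and Tgfb3 14.6, 13.2, 15.3 and 14 and 13.7, 12.8, 15.5 and 13.6 CPM (log2FC −0.043, SE 0.094), so that only Tgfb1 had ranges without overlap, as described above. Il4, at 14.6 ± 1.19 CPM in A+/Pwt/wt and 15.2 ± 1.25 CPM in A+/Pki/ki mice, and Il12a (log2FC −0.13, SE 0.21) overlapped.

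Gfap, Serpina3n and Vim, main genes of reactive astrocytes, were above the A-/Pwt/wt library in all A+ mice, with overlap between the genotypes. Gfap, the intermediate filament of reactive astrocytes, was 864, 1064, 999 and 623 CPM in A+/Pwt/wt and 1103, 997, 723 and 909.8 CPM in A+/Pki/ki mice, compared with 181 CPM in the A-/Pwt/wt library (log2FC 0.071, SE 0.18). Serpina3n (log2FC −0.13, SE 0.17) and Vim (log2FC −0.025, SE 0.12) were likewise above the A-/Pwt/wt library (12.5 and 45 CPM) in all A+ mice and overlapped between the genotypes. Of 30 reactive astrocyte genes, 18 were higher and 12 lower (median 0.028), and 16 of them were higher in all 8 A+ libraries than in the A-/Pwt/wt library and 2 lower. Fbln5 and S1pr3, which are also expressed by vascular cells, were the 2 members with an unadjusted p under 0.05 (log2FC 0.41 and 0.24). Of 18 general astrocyte markers, 15 were higher, by a median log2FC of 0.068 (0.016 to 0.099 with single mice left out). Ntsr2, a neurotensin receptor of astrocytes, went the other way, at 185, 141, 151 and 142 CPM in A+/Pwt/wt and 122, 130.5, 136 and 138 CPM in A+/Pki/ki mice (log2FC −0.23, SE 0.087, unadjusted p 0.0178), with no overlap. Oligodendrocyte markers varied strongly among mice of both genotypes. Mbp, a major myelin protein gene, was 2864, 2045, 2324 and 1522 CPM and 2609, 1998, 1882 and 2430.1 CPM (log2FC 0.027, SE 0.19), and the median log2FC of the 22 markers was −0.020. Leaving out single mice moved that median between −0.14 and 0.099, so its sign depended on single mice. Of 13 markers of oligodendrocyte precursors, 8 were higher and 5 lower (median 0.044).

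Vascular transcripts were mostly higher in A+/Pki/ki mice. Of 24 endothelial and mural markers, 22 were higher and 2 lower in A+/Pki/ki mice, with a median log2FC of 0.25. The mean log2 CPM of the markers was 3.84, 4.07, 3.81 and 4.03 in A+/Pwt/wt and 3.97, 4.27, 4.52 and 3.87 in A+/Pki/ki mice. The ranges overlapped, because A+/Pki/ki mice 203 and 216 were high, whereas mice 184 and 222 were among the A+/Pwt/wt mice. Without mouse 216, the median was 0.12, and without A+/Pwt/wt mouse 257 it was 0.35. Ly6c1, a surface protein of brain endothelium, was 18.8, 27.4, 20.7 and 23.4 and 30.2, 36.7, 35.1 and 25.7 CPM (log2FC 0.50, SE 0.13, unadjusted p 0.00209), and Slc2a1, the glucose transporter of the blood-brain barrier, had a log2FC of 0.29 (unadjusted p 0.0176). These were the only members with an unadjusted p under 0.05, both higher. Cldn5, a tight junction gene, was 45.3, 55, 38.6 and 41.5 and 47.2, 56.5, 64.5 and 40.3 CPM (log2FC 0.21, SE 0.16), with mouse 216 again the highest. The smooth muscle genes Acta2 and Myh11 had a log2FC of 0.65 and 0.57, and the pericyte gene Pdgfrb 0.021. The fibroblast and vascular matrix gene Mgp was 10.2, 14.1, 9.48 and 11.5 and 12.8, 22.5, 16.6 and 16 CPM (log2FC 0.59, SE 0.17, unadjusted p 0.0046), but meningeal and fibroblast markers as a list were split 8 to 8 (median −0.0072). The vascular genes named before, Mylk and Ramp2, were at 32.3 and 17.3 CPM in mouse 216, the highest of all A+ mice for both. With that mouse left out, the log2FC of Mylk was 0.43, and the part of vascular content in it was not tested.

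Choroid plexus and ependymal markers were higher in A+/Pki/ki mice for 15 of 16 genes (median log2FC 0.44), but this rested on a single mouse. Ttr, the transport protein of the choroid plexus, was 79.2, 36.9, 9.29 and 69.8 CPM in A+/Pwt/wt and 530.3, 62.8, 17.6 and 54.7 CPM in A+/Pki/ki mice, and without mouse 184 the median of the list was −0.036. That mouse also had the highest haemoglobin transcripts, with Hbb-bs at 60.2 CPM compared with 7.29 to 31.9 CPM in the other A+ mice, and without it the median of the 9 blood and neutrophil markers (7 higher, 2 lower) went from 0.45 to −0.56. Of 11 tested markers of border macrophages, 7 were lower (median −0.086). Mrc1, the mannose receptor of these cells, was 3.49, 3.77, 3.24 and 4.93 and 2.18, 3.63, 2.2 and 2.76 CPM (log2FC −0.52, SE 0.20, unadjusted p 0.0205), with A+/Pki/ki mouse 203 within the A+/Pwt/wt range. Of 21 lymphocyte markers, 14 were too low to be tested, and the other 7 were split 3 to 4 (median −0.17).

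**Figure D5:**
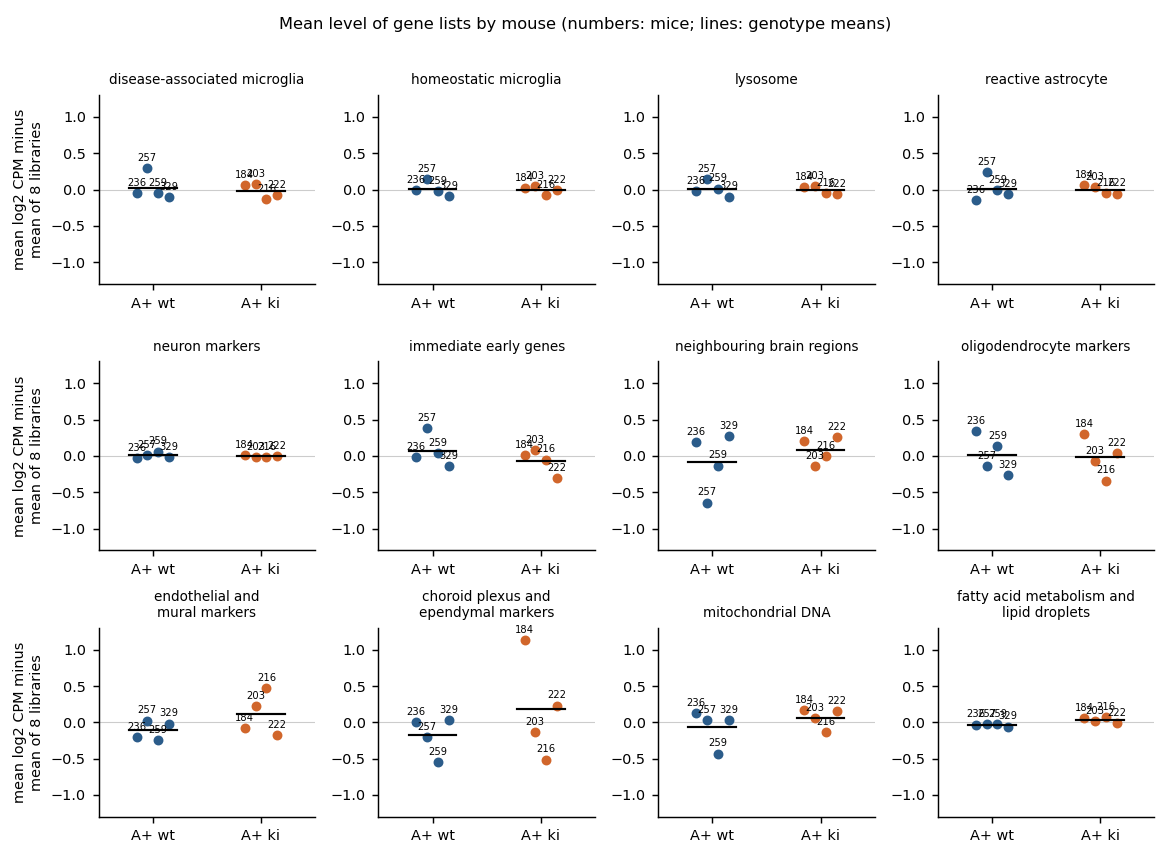
Mean log2 CPM of the tested members of 12 gene lists in each A+/Pwt/wt (blue) and A+/Pki/ki mouse (orange), as the difference from the mean of the 8 libraries (y axis), with mouse numbers and genotype means (lines). The genotypes overlap in nearly all panels, mouse 257 is the highest for immediate early genes and the lowest for neighbouring brain regions, and mouse 184 is the highest for choroid plexus markers.

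Of the neuronal lists, immediate early genes, which are induced within minutes of synaptic activity, were the most one-sided. Of 29 genes, 24 were lower and 5 higher in A+/Pki/ki mice, with a median log2FC of −0.18. Egr4, a zinc finger transcription factor of this class, was 62.5, 87.2, 70.3 and 56.2 CPM in A+/Pwt/wt and 52.2, 56.3, 55.2 and 47.9 CPM in A+/Pki/ki mice (log2FC −0.38, SE 0.12, unadjusted p 0.00654), and Egr1 was 299.6, 378, 365 and 281 and 327, 305, 255 and 225 CPM (log2FC −0.25, SE 0.13). Npas4 (log2FC −0.50) and Homer1 (−0.29), which encodes a postsynaptic scaffold, were the other members with an unadjusted p under 0.05, and Fos had a log2FC of −0.36. Arc varied widely among the mice, at 205, 254, 171 and 95.1 CPM and 199, 188, 138 and 109 CPM (log2FC −0.20, SE 0.34), and Jun was the highest of the higher members (log2FC 0.18, SE 0.091). The mean log2 CPM of the list was 5.19, 5.59, 5.24 and 5.06 in A+/Pwt/wt and 5.21, 5.28, 5.15 and 4.89 in A+/Pki/ki mice. A+/Pwt/wt mouse 257, the library with the fewest striatal transcripts, was the highest, and without it the median log2FC was −0.013, a value near that of all genes.

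Most genes of the synapse differed little between the genotypes. Of 27 presynaptic genes, 9 were higher and 18 lower (median −0.012), with Cacna1a the only one of them at an unadjusted p under 0.05. Snap25, of the vesicle fusion complex, was 2625 ± 171 CPM in A+/Pwt/wt and 2611 ± 188 CPM in A+/Pki/ki mice (log2FC −0.0076, SE 0.077), and Cplx2 1594 ± 128 CPM in A+/Pwt/wt and 1753 ± 97.3 CPM in A+/Pki/ki mice (log2FC 0.14, SE 0.077). Of 28 excitatory postsynaptic genes, 22 were lower (median −0.036). Homer1 was 176, 212, 242 and 252 and 179, 203, 186 and 153 CPM (log2FC −0.29, SE 0.11), and the glutamate receptor gene Gria4 had a log2FC of −0.16, both with an unadjusted p under 0.05, whereas Camk2a (log2FC 0.099, SE 0.10) and Gria1 (log2FC 0.14, SE 0.081) were on the other side of zero. Inhibitory neuron genes were split 11 to 17 (median −0.0098). Reln, a matrix protein of interneurons, was 74.9, 86.2, 85.9 and 115 and 77.2, 73.8, 81.4 and 67.7 CPM (log2FC −0.27, SE 0.11, unadjusted p 0.035), and the neuropeptide gene Sst was 242 ± 40.2 CPM in A+/Pwt/wt and 249.7 ± 26.3 CPM in A+/Pki/ki mice (log2FC 0.045, SE 0.11). Cortical layer markers (11 higher, 14 lower, median −0.054) and neuropeptide genes (15 higher, 13 lower, median 0.0099) held 0 members with an unadjusted p under 0.05. Among them, the upper layer gene Cux2 had a log2FC of −0.21 and the activity-regulated neuropeptide precursor gene Vgf −0.15. The 22 general neuron markers were split 11 to 11 (median 0.0027), with only the neurofilament gene Nefh at an unadjusted p under 0.05 (log2FC −0.19), and their mean log2 CPM was within 8.87 to 8.97 in all 8 libraries. Of genes that mark the striatum, thalamus and hippocampus, 14 were higher and 11 lower (median 0.0095). Spink8, C1ql2 and Lct, which mark hippocampal subfields, had an unadjusted p under 0.05, each higher in A+/Pki/ki mice (log2FC 1.03, 0.64 and 0.76). Spink8 was 1.11, 0.642, 1.1 and 1.82 and 2.51, 1.73, 2.69 and 2.78 CPM. Dsp, a marker of the dentate gyrus, was on the other side of zero, at 1.75, 0.0803, 0.495 and 2.74 and 0.364, 0.864, 0.492 and 0.629 CPM with overlapping ranges (log2FC −1.14, unadjusted p 0.182). The part of the dissection in these values was not tested.

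Metabolic genes differed by small amounts. Of 42 genes of fatty acid metabolism and lipid droplets, 30 were higher and 12 lower (median log2FC 0.057), and the median ranged from 0.041 to 0.085 with single mice left out. The 3 members with an unadjusted p under 0.05 were higher in A+/Pki/ki mice. They were Lpl, the lipid droplet gene Plin4 (log2FC 0.50) and Cd36, a fatty acid transporter and scavenger receptor of microglia and endothelium, which was 2.3, 1.61, 2.7 and 2.88 CPM in A+/Pwt/wt and 3.53, 3.2, 4.03 and 3.34 CPM in A+/Pki/ki mice (log2FC 0.56, SE 0.19, unadjusted p 0.01) with no overlap. Pparg, a lipid-sensing nuclear receptor, had the largest difference in the lower direction (log2FC −0.34, SE 0.18, unadjusted p 0.0868). The mean log2 CPM of the list was 5.29, 5.30, 5.30 and 5.27 in A+/Pwt/wt and 5.38, 5.34, 5.39 and 5.31 in A+/Pki/ki mice. All A+/Pki/ki mice were above all A+/Pwt/wt mice, with genotype means of 5.36 and 5.29, respectively. The ranges nearly met, with A+/Pki/ki mouse 222 at 5.313 and A+/Pwt/wt mouse 257 at 5.304. The summed CPM of the list, which weights abundant genes more, overlapped (4585 to 4695 in A+/Pwt/wt and 4502 to 4877 in A+/Pki/ki mice, with mouse 222 the lowest). Of 33 genes of cholesterol synthesis and efflux, 22 were higher (median 0.027, −0.0084 to 0.061 with single mice left out and below zero without mouse 329), with the sterol desaturase gene Sc5d (64, 58.3, 60.7 and 62.7 and 73.4, 72.4, 69.6 and 63 CPM, log2FC 0.18, SE 0.068) as the only member at an unadjusted p under 0.05. Cyp46a1, which removes cholesterol from neurons, had a log2FC of −0.085. Of 69 nuclear genes of the respiratory chain, 52 were higher and 17 lower (median 0.025, −0.026 to 0.071 with single mice left out and below zero without mouse 329), and 0 had an unadjusted p under 0.05. Cox8a, a subunit of complex IV, was 403, 351, 352 and 279.7 and 379, 364, 368 and 407 CPM (log2FC 0.13, SE 0.094). Of 15 mitochondrially encoded genes, 14 were higher (median 0.12), but mt-Co1 was 18546, 19969, 14043 and 16406 and 18696, 18001, 16796 and 18792 CPM, and without A+/Pwt/wt mouse 259, the lowest, the median was 0.0073.

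Anxiety-like behaviour had been examined in these lines, and glucocorticoid-responsive and clock genes were therefore listed. Of 24 glucocorticoid-responsive and receptor genes, 17 were higher and 7 lower (median 0.076, 0.063 to 0.10 with single mice left out). Ddit4, a stress-induced inhibitor of mTOR, was 32.2, 32.5, 32.7 and 26.9 CPM in A+/Pwt/wt and 35.3, 33, 36.9 and 38.7 CPM in A+/Pki/ki mice (log2FC 0.21, SE 0.084, unadjusted p 0.0227), with no overlap between the genotypes. The only other member with an unadjusted p under 0.05 was Plin4. Fkbp5, a glucocorticoid target that binds the receptor, had a log2FC of 0.19, the receptor gene Nr3c1 −0.035 and the corticotropin-releasing hormone receptor gene Crhr1 −0.13. Clock genes were split 11 to 8 (median 0.0043).

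Of 30 tested mouse orthologues of other genes at Alzheimer's disease risk loci, 14 were higher and 16 lower (median −0.0056). Sorl1, a sorting receptor of APP, was 236, 338, 314 and 317 CPM in A+/Pwt/wt and 253, 269, 276 and 229 CPM in A+/Pki/ki mice (log2FC −0.23, SE 0.10, unadjusted p 0.0388), with overlap, and Abca7, a lipid transporter, had a log2FC of −0.19 (unadjusted p 0.0491). Ptk2b (log2FC 0.065, SE 0.075) and Trem2 (log2FC 0.032) were near zero. Of 18 genes of APP processing, 12 were lower (median −0.011), and only Bace2, a homologue of the β-secretase, had an unadjusted p under 0.05, at 4.3, 3.17, 2.67 and 3.48 and 7.61, 4.58, 3 and 4.89 CPM (log2FC 0.54, SE 0.25). In the surroundings of the edited gene, 89 tested genes within 5 Mb of Plcg2 were split 45 to 44, with a median log2FC of 0.0025. Of these, 3 had an unadjusted p under 0.05 (3.37%, compared with 2.61% of all genes).

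The genotype effect in cortex was finally set against that in CD11b+ microglia isolated from the brains of other A+/Pki/ki and A+/Pwt/wt females (n = 4 and 4). For 19942 genes, the difference between the 2 effects was tested in a joint fit of 16 libraries, and 0 genes (0%) passed an adjusted p of 0.05 in edgeR (smallest adjusted p 0.858, 998 with an unadjusted p under 0.05), while DESeq2 called 2, the glutamate transporter gene Slc1a6 and the fibroblast growth factor gene Fgf14 (log2FC of 0.058 and −0.016 in cortex), which are named after their values were seen, and the separate comparison in microglia called 0 of 17039 genes (568 at an unadjusted p under 0.05). This result depended on one microglial library. Without A+/Pki/ki microglia of mouse 335, 1616 genes passed, 1546 of them with the larger log2FC in cortex, whereas leaving out any cortical library gave 0. Mouse 335 stood apart from the other A+/Pki/ki microglia in neuronal, astrocyte, mitochondrially encoded and homeostatic microglial transcripts. The summed CPM of mitochondrially encoded genes was 193146 in mouse 335 and 34430.9 to 75114.9 in the other A+/Pki/ki microglia. It was 89733.1 to 166314 in A+/Pwt/wt microglia. For homeostatic genes, the sums were 28439.8, 44602.4 to 51720.9 and 31161.8 to 45561.5 CPM, respectively. The summed level of the neuron markers was 2263 CPM in mouse 335 and 306 to 779 CPM in the other A+/Pki/ki microglia, compared with 1169.8 to 2072 CPM in A+/Pwt/wt microglia. The medians of 3 microglial lists were nearer zero in cortex than in isolated microglia. For PLCγ2 signalling, it was −0.021 in cortex and 0.16 in microglia, where 26 of 30 genes were higher, and for homeostatic genes 0.0036 and 0.23 (19 of 19 higher in microglia). In the same microglial comparison, markers of other cell types were on the other side of zero, with a median log2FC of −0.83 for neuron (0 of 22 higher), −0.72 for astrocyte (0 of 18) and −0.58 for oligodendrocyte precursor markers (0 of 13) and −0.67 for mitochondrially encoded genes (0 of 15). Their part in the microglial values was not tested. For genes of disease-associated microglia, the medians were −0.017 and 0.093 (25 of 32 higher). Tgfb1 had a log2FC of −0.26 in cortex and 0.24 in microglia, with a difference of −0.48 (SE 0.19, adjusted p 0.858). Mylk had 0.51 and −0.34 (difference 0.87, SE 0.23, adjusted p 0.858), and Hspa8 had 0.30 and 0.48 (difference −0.17, SE 0.25). In microglia, Hspa8 was not called (edgeR unadjusted p 0.0793, adjusted p 0.856), so its shared direction was not shown to be an effect there. Immediate early genes were lower by the median in cortex (−0.18, but −0.013 without A+/Pwt/wt mouse 257) and higher in microglia (0.63, 20 of 29 higher). Since none of the differences passed the edgeR test with all 16 libraries, the effects in the 2 tissues were not shown to differ in that fit. The 2 calls of DESeq2 and the calls without mouse 335 depended on the tool and on that library. The intervals of single genes in microglia were wide.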

How the data were processed

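Bulk RNA was sequenced as poly(A) libraries, of which the 8 cortex libraries of A+ females of 13 months, the A-/Pwt/wt cortex library and 8 libraries of CD11b+ microglia of A+ females were used. Per the labels and the study's methods, the authors checked and trimmed reads (FastQC 0.11.7, Trimmomatic 0.39), aligned them to GRCm38 with STAR 2.7.9a and deposited unstranded counts of uniquely mapped primary alignments per gene (featureCounts, Gencode M25). They also deposited variance-stabilized log2 values, made with DESeq2. Here, genes reaching 10 counts in 3 or more of the 8 libraries were kept and their counts scaled by TMM and tested with edgeR 4.0.16 (quasi-likelihood, robust, R 4.3.3) with Benjamini-Hochberg adjustment at 0.05, with DESeq2 1.42.0 on the counts and limma 3.58.1 on the deposited log2 values as alternatives. The scripts were tested on simulated counts. log2 CPM used a prior count of 2. Coordinates, sequences and overlaps are from Gencode M21 of GRCm38. Named were the leading 10 genes per direction without overlap and of at least 5 CPM, the DESeq2 calls, the members of each list with an unadjusted p under 0.05, with the smallest p per direction or among the 3 most abundant, and genes listed by role. Members and lists were chosen with earlier results of these data known. Of 195 named genes, 44 share exonic positions with an opposite-strand gene and 15 with a same-strand gene, where unstranded or shared reads are uncertain. Counts per library were 25226544 to 43129427, and intervals cover the spread between mice of a genotype. Alternatives were other scalings, filters and tools, all 9 cortex libraries and leaving out each mouse. Certain items are not reported here.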

Additional observations from a re-analysis of the deposited data

Results flagged for a closer look

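In 18 of 288 groups of 4 mice, 1 mouse stood apart from the other 3 by Dixon's 95% criterion (the gap to the nearest mouse over the range), and chance alone marks about 1 in 20 such groups. In A+/Pki/ki mice, these were Mrpl27-ps in mouse 203 (5.18 CPM), B2m (189 CPM), H2-Eb1 (6.15 CPM), Ttr (530.3 CPM) and Hbb-bs (60.2 CPM) in mouse 184, Tubb2b (177 CPM) and Tgfb2 (14.4 CPM) in mouse 216, and Prkcb in mouse 222 (375 CPM). In A+/Pwt/wt mice, these were Tubb2b (113 CPM), Prkcb (438 CPM) and Ddit4 (26.9 CPM) in mouse 329, Cux2 in mouse 257 (99.9 CPM) and Hbb-bs in mouse 259 (31.9 CPM). Among the mean log2 CPM of gene lists, mouse 257 stood apart for disease-associated microglia (5.94), mouse 236 for oligodendrocyte precursors (5.19) and mouse 329 for other Alzheimer's disease risk genes (4.98), all A+/Pwt/wt, and A+/Pki/ki mouse 222 for the inflammatory panel (2.45) and for cholesterol synthesis and efflux (5.73). A+/Pwt/wt mouse 329 was the lowest of the 8 mice for both Tubb2b and Ddit4, and A+/Pki/ki mouse 184 the highest for both Ttr and Hbb-bs.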

How the results depend on the processing

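The count of 0 genes between the genotypes was the same with size factors, filterByExpr, limma and the fit of all 9 cortex libraries. It was 11 with DESeq2 and 30 of 34347 genes with no filter on low counts, of which 25 had been tested with the filter, and 0 to 1 with single mice left out. The genes called were Mrpl27-ps without A+/Pki/ki mouse 203, Gm2427 without A+/Pwt/wt mouse 236 (adjusted p 0.00779), Greb1 without 257 and Hdhd3 without 329, all lower in A+/Pki/ki mice. For the difference between cortex and microglia, the count of 0 was 2 with DESeq2 and 0 to 1616 with single libraries left out. The highest was without A+/Pki/ki microglia of mouse 335, and the cause was not tested. As the main fit called 0 genes, it held no call that could be reversed. Among 107 reported genes, 83 kept the sign of the log2FC whichever mouse was left out. Part of these genes had been named for a small p in these same data, which favours a kept sign. The median log2FC of each list was computed with size factors, DESeq2, all 9 cortex libraries and each mouse left out. Its sign was kept throughout by 11 of 37 lists, among them endothelial, astrocyte, interferon, immediate early and fatty acid genes. Without mouse 257, however, the median was 0.0064 for interferon and −0.013 for immediate early genes. With 4 mice per genotype, differences under about 0.19 on the log2 scale were within the median 95% interval of genes of at least 5 CPM, and under 0.66 for genes of lower expression. No paired analysis was possible because the genotypes share no mouse numbers.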
